A study of Mus musculus with 8 samples.

Results

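The lysosome and TFEB target genes described here are 37 of the 50600 rows of an RNA-seq table of mouse embryonic stem cells (ESCs). They were chosen by name, but with earlier results of these data known. They were 7 lysosomal proteases, 7 glycosidases and sulfatases, and 7 genes of lysosomal lipid breakdown and export. The others were 6 membrane proteins, 4 genes of the proton pump, and TFEB with 5 of its regulators, targets and autophagy partners. All 37 were found, each in 1 row. The cells were OG2 transgenic ESCs of mixed 129SVJ, C57B6 and CBA background with the genotype c-Jun_TetOn_mESC (JUN TetON ESCs), which express JUN when doxycycline is added and then leave pluripotency. They were grown without feeder cells in 2i/LIF medium, and by the labels every group received 2 µg/ml doxycycline for 6 h, so no library shows the cells before JUN induction. The paper describes a longer induction for these libraries, and a supplementary legend gives 6 h as the time with the compounds. The disagreement could not be settled here. The 4 groups of 2 libraries each received DMSO (the solvent control), PFI-3, which binds the bromodomain of the BAF ATPase BRG1, BI-9564, which binds the bromodomains of BRD7 and BRD9, or both compounds together (P+B), and the question was what each compound changed during JUN induction. The doses in these libraries are not given in the labels, nor is it stated whether 2 libraries of a group came from separate cultures, so p-values measure the spread between these libraries.

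Lysosomes are the acidic compartments in which cells digest proteins, glycans and lipids that arrive by endocytosis or autophagy, and a V-type proton pump keeps them acidic. Many of their genes carry the CLEAR element, an E-box with the core CACGTG, in the promoter and are switched on by TFEB and its relatives. When nutrients are sufficient, the kinase mTORC1 at the lysosomal surface keeps TFEB phosphorylated in the cytoplasm, a step that needs the folliculin complex (FLCN with FNIP1 or FNIP2) acting on the Rag GTPases. Cells under lysosomal stress, including that caused by weakly basic lipophilic drugs trapped inside the organelle, are known to release TFEB into the nucleus, where it raises lysosomal genes and also FLCN, FNIP1 and RRAGD, which act back on mTORC1.

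The sequences that carry this motif are shown first. RefSeq promoter windows on GRCm38.p6, 300 bases around a transcript start, most of them upstream of it, were at hand for 32 of the 37 members; Ctsb, Galns, Asah1, Npc1 and Atp6v1h had none. The core CACGTG, which reads the same on both strands, stood in a window of 12 of the 32 members (37.5%), against 8.1% of 27025 genes with a window and 12.6% of the 7783 of these that were tested here. The longer form TCACGTGA, which contains the core, stood in 6 of 32 (18.8%), against 1.1% of all genes and 2.5% of tested genes. The members were chosen as lysosomal genes and TFEB targets, so these shares for the CLEAR motif are not independent of that choice. The AP-1 site TGANTCA, the motif JUN binds, stood in 4 of 32 (12.5%), against 9.0% of all and 5.5% of tested genes. Windows are printed for Mcoln1, Fnip1 and Flcn, which were called with P+B when the replicate number was a block in the fit (below), and for Lamp1, the most highly expressed member. Capitals mark the core CACGTG.
Mcoln1 (chr8:3500269-3500568, plus strand): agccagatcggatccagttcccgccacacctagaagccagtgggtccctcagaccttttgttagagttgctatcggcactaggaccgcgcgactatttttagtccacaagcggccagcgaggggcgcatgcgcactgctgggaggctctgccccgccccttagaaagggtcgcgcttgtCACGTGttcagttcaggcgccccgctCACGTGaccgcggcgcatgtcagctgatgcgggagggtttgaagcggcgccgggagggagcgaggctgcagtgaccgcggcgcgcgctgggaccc
Fnip1 (chr11:54437929-54438228, plus strand): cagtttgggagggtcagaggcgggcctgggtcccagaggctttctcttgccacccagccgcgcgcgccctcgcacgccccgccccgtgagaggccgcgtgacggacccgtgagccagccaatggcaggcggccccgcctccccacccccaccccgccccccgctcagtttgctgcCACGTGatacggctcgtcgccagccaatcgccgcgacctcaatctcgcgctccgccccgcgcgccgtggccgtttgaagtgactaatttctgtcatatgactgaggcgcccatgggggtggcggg
Lamp1 (chr8:13158911-13159210, plus strand): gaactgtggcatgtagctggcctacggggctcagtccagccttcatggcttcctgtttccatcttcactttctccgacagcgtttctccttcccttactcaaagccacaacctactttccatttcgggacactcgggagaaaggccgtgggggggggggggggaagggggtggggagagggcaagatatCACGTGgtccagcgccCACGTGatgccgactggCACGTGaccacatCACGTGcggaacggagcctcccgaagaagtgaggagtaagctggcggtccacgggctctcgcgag
Flcn (chr11:59809990-59810289, minus strand): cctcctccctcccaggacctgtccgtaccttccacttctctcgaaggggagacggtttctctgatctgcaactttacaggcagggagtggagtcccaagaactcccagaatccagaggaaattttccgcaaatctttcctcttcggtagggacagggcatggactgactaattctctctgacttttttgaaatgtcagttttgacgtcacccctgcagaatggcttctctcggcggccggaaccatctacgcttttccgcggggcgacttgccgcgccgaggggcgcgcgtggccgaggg
Mcoln1 had the core at -71 and -45, counted from the first base of the motif to the transcript start, Fnip1 at -75, and Lamp1 at -61, -45, -28 and -15. No core was in the Flcn window, which says only that these letters are not in these 300 bases. Sites of further members follow with 10 bases on each side and the distance of the motif from the start, to show how far the flanks of the core differ. The site of Ctsl at -236 and another site of Ctsd at -245 are not printed, and neither has the longer form.
Ctsa (chr2:164833751-164833776, plus strand, -12): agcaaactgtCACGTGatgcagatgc
Ctsa (chr2:164833768-164833793, plus strand, 5): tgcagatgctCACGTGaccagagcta
Gla (chrX:134601217-134601242, minus strand, -227): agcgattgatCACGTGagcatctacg
Gla (chrX:134601184-134601209, minus strand, -194): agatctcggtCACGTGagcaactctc
Ctsd (chr7:142387910-142387935, minus strand, -98): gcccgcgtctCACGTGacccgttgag
Atp6v0d1 (chr8:105566052-105566077, minus strand, -3): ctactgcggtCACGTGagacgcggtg
Atp6v1a (chr16:44139375-44139400, minus strand, -131): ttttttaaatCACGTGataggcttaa
Glb1 (chr9:114401020-114401045, plus strand, -48): gcttctgagtCACGTGgcctacagag
Gaa (chr11:119267813-119267838, plus strand, -140): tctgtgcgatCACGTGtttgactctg
Naglu (chr11:101070011-101070036, plus strand, -73): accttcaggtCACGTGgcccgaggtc
The core was flanked by T and A (TCACGTGA) at both sites of Ctsa and of Gla and at the sites shown for Ctsd, Atp6v0d1 and Atp6v1a. The Mcoln1 site at -45 had the same flanks. A match is a description of the sequence and not a measured binding site. With PFI-3 the median log2 fold change was 0.18 over the 11 tested members with the core and 0.22 over the 19 without it. For P+B it was 0.12 and 0.06, and for BI-9564 0.05 and 0.03. By the longer form (6 members with it, 24 without) it was 0.13 and 0.24 with PFI-3, 0.06 and 0.16 with P+B, and -0.00073 and 0.06 with BI-9564. Over all tested genes with a window, P+B gave 0.04 with the core and 0.06 without it, and PFI-3 0.03 and 0.01. By the longer form these were 0.11 and 0.06 (P+B) and 0.08 and 0.01 (PFI-3).

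Each value is the TPM of a gene (a level per length of transcript) that the authors made a whole number, so low genes move in steps of 1 and levels can be compared between genes. The library totals were 991574 to 991897, and the depth and counting error behind a TPM are not known. The limma test ran on log2(value + 1), a scale that understates the change of low genes, for the 10222 genes whose mean over the 8 libraries was 5 or more, among them 35 members. Naglu, the N-acetylglucosaminidase of heparan sulfate breakdown (1 to 2 TPM), and Lipa, the lysosomal acid lipase (1 to 4 TPM), were too low. In bulk RNA, fewer cells of a type and less RNA per cell cannot be told apart.

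Lysosomal genes were expressed over a wide range in these ESCs (the plot of the values in each library). Lamp1, the main glycoprotein of the lysosomal membrane, was the highest member with 387 to 529 TPM and made up 17.3% to 19.8% of the members' summed level. Sqstm1 (188 to 301 TPM), Cd63 (150 to 333 TPM), Psap (157 to 228 TPM) and Ctsd (149 to 210 TPM) came next, and their ranges overlapped. Tfeb itself was low at 6 to 16 TPM. At the lower end, Smpd1, Gpnmb and Galns had means between 5 and 5.63 TPM over all libraries. The ESC identity of the libraries was checked on 8 pluripotency markers, which all had means of at least 5, with Pou5f1 at 1104 to 1333 TPM. Of 9 macrophage markers 8 were at 0 in all libraries, and the list summed to 3 or less in each, so the markers of a cell type rich in lysosomes were at or near 0.

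**Figure D1:**
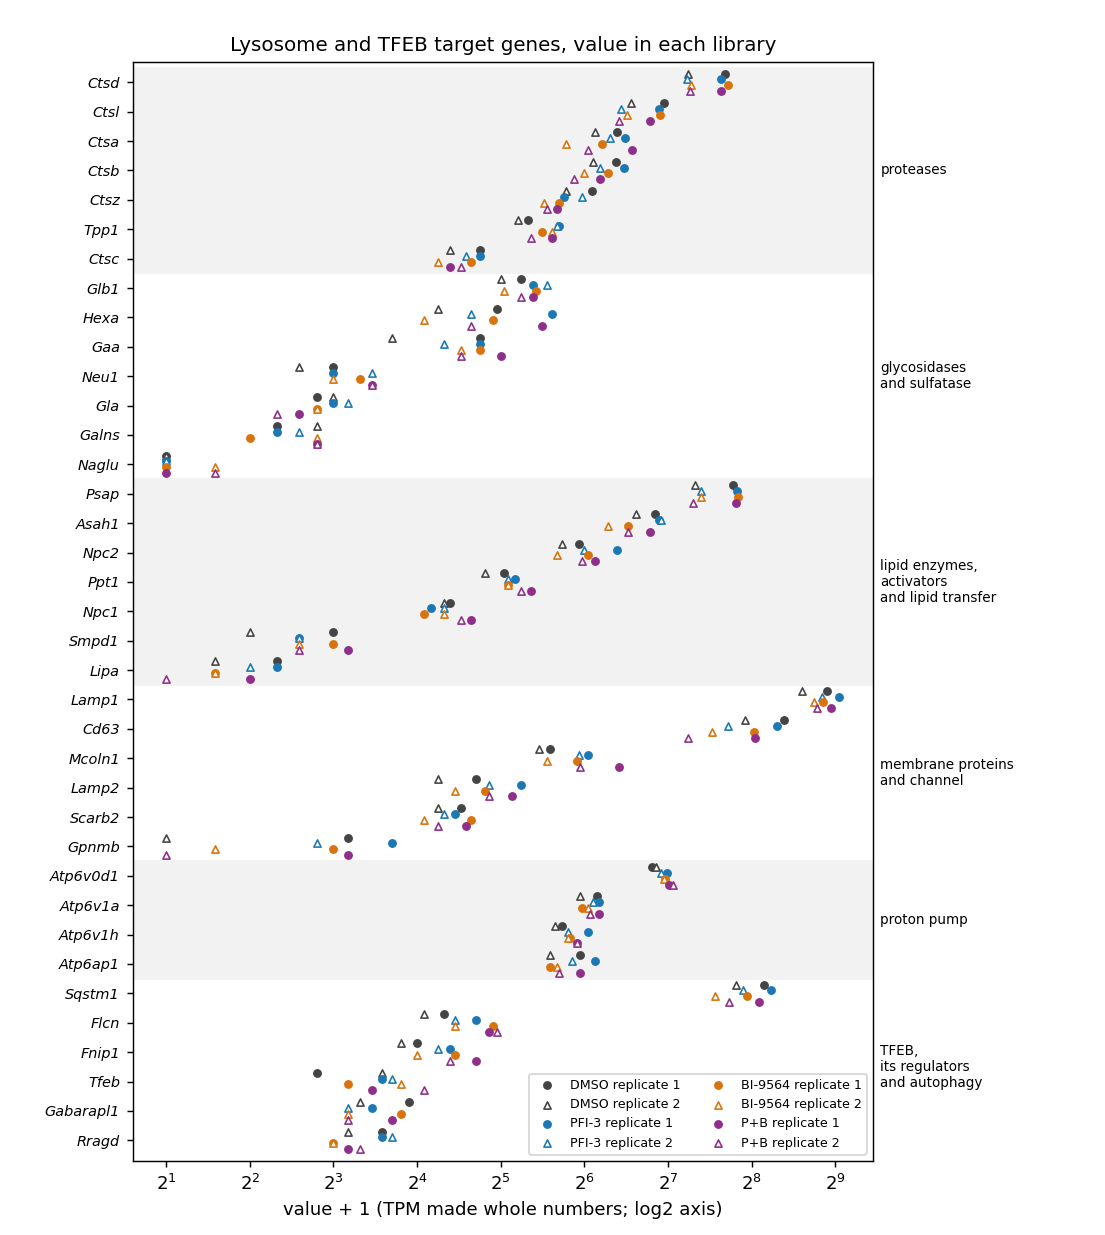
Value of each of the 37 members in each library, on a log2 axis of value + 1, ordered by role and by mean; colours mark the treatment, filled circles replicate 1 and open triangles replicate 2. Lamp1 lies highest at 387 to 529 TPM and Naglu lowest at 1 to 2, and for most members the circles lie to the right of the triangles of the same colour.

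With P+B no member was called, against 4% of all tested genes (409 of 10222), where called means an adjusted p-value (Benjamini-Hochberg) under 0.05 with a fold of 1.5 or more. Of the 35 members 7 had an unadjusted p under 0.05 (20%, against 22.6% of all genes). The members' median log2 fold change was 0.12, beside 0.06 over all genes, with 23 members higher (65.7%, against 57.6% of all genes) and 11 lower. With PFI-3 no member and no other gene was called (0% of all genes); 3 members had an unadjusted p under 0.05 (8.57%, against 6.79%). Their median was 0.18, beside 0.02 over all genes, and 28 of 35 were higher than with DMSO (80%, against 53.4% of all genes). With BI-9564 no member was called, against 0.108% of all genes, and 2 members had an unadjusted p under 0.05 (5.71%, against 14.9%). The median was 0.03 with 18 higher (51.4%, against 53.3% of all genes) and 17 lower. Counts of higher genes by role group or list below stand beside these same shares of all genes. These 3 comparisons share the DMSO libraries. Without DMSO replicate 2, the DMSO library with the lower sum of members, the medians were -0.03 (P+B), 0.06 (PFI-3) and -0.16 (BI-9564). Without DMSO replicate 1 they were, in the same order, 0.24, 0.29 and 0.15. Leaving out a library of the treated group moved them to between 0.03 and 0.24 for P+B, 0.09 and 0.23 for PFI-3, and -0.10 and 0.15 for BI-9564. With each library centred on its median gene they were 0.02, 0.13 and -0.02.

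The calls depended on the replicate number of the libraries. The number was taken to pair them (the differences between replicate 1 and 2 correlated between groups, r = 0.143 to 0.236 across 10222 genes), and with this number as a block in the fit, 3 members were called with P+B (8.57%, against 7.02% of all genes, or 2.93% counting only genes that were higher). They were Mcoln1, Flcn and Fnip1, all higher. Lamp2 (higher) and Cd63 (lower) passed the adjusted p alone (5 members in all, 14.3%, against 11.6%). In the same blocked comparison 13 members had an unadjusted p under 0.05 (37.1%, against 29.2%). No member was called with PFI-3 or BI-9564 under the block (0% and 1.53% of all genes), where 11 and 7 members had an unadjusted p under 0.05 (11.2% and 21.3% of all genes). None of the 3 calls with P+B held when either DMSO library or P+B replicate 2 was left out of the blocked fit, or when only the 4 libraries compared were used, and without P+B replicate 1 Cd63 was the single member called. Mcoln1 was the single member called without any 1 of the PFI-3 or BI-9564 libraries.

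**Figure D2:**
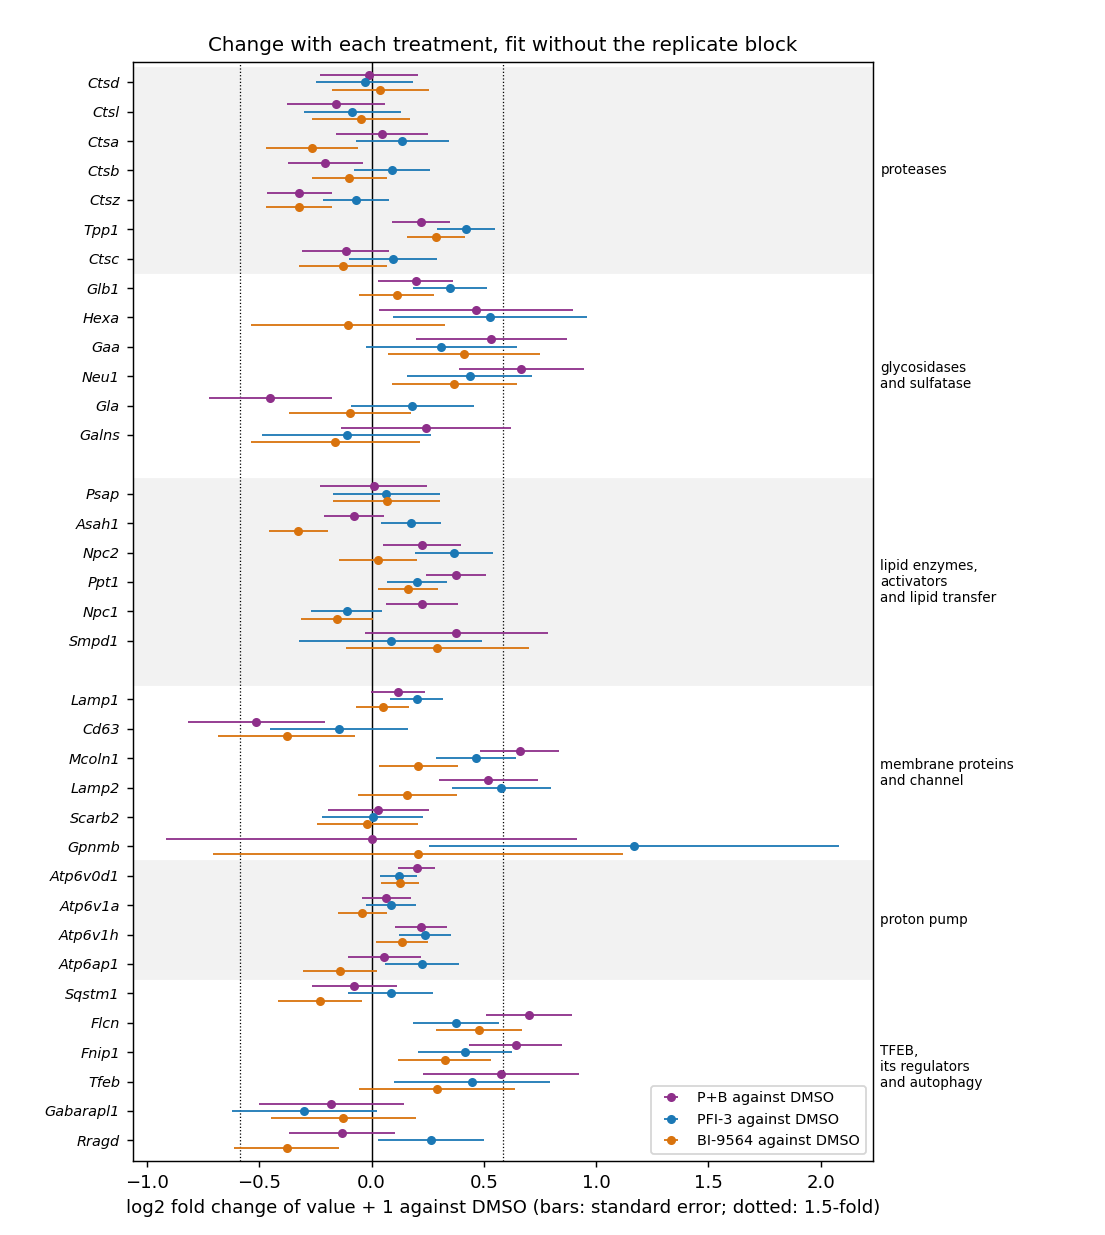
log2 fold change of value + 1 against DMSO for the 35 tested members with P+B, PFI-3 and BI-9564, with bars of 1 standard error from the limma fit without a block (2 libraries per group) and dotted lines at a fold of 1.5. With P+B Flcn, Neu1, Mcoln1 and Fnip1 lie beyond the dotted line at 0.64 to 0.70, and Gpnmb, the widest bar, lies at 1.17 with PFI-3.

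The 3 members called with P+B under the block were a calcium channel and both parts of the folliculin complex. Mcoln1 (chr8:3500457-3515232, plus strand) encodes the lysosomal cation channel TRPML1, whose calcium release activates the phosphatase that frees TFEB. It was at 47 and 43 TPM under DMSO, 65 and 60 under PFI-3, 59 and 46 under BI-9564 and 84 and 61 under P+B. Both P+B libraries and both PFI-3 libraries lay above both DMSO libraries, and BI-9564 replicate 2 lay between the DMSO values. The log2 fold change with P+B was 0.66 (SE 0.18, 95% CI 0.25 to 1.07, limma, adjusted p = 0.0741, and 0.0127 with the block). With PFI-3 it was 0.47 (SE 0.18, adjusted p = 0.669) and with BI-9564 0.21 (SE 0.18, adjusted p = 0.625).

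Flcn (chr11:59791408-59810016, minus strand) encodes folliculin, which lets mTORC1 act on TFEB. Its values were 19 and 16 TPM under DMSO, 25 and 21 under PFI-3, 29 and 21 under BI-9564 and 28 and 30 under P+B. All 6 treated libraries lay above both DMSO libraries. The log2 fold change was 0.70 with P+B (SE 0.19, 95% CI 0.26 to 1.14, adjusted p = 0.0775, and 0.032 with the block), 0.38 with PFI-3 (SE 0.19, adjusted p = 0.788) and 0.48 with BI-9564 (SE 0.19, adjusted p = 0.304). Fnip1 (chr11:54438199-54518235, plus strand), the partner of folliculin, was at 15 and 13 TPM under DMSO, 20 and 18 under PFI-3, 21 and 15 under BI-9564 and 25 and 20 under P+B. BI-9564 replicate 2 equalled the higher DMSO library and the other 5 treated libraries lay above both. The log2 fold change of Fnip1 with P+B was 0.64 (SE 0.21, 95% CI 0.17 to 1.12, adjusted p = 0.117, and 0.0372 with the block).

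**Figure D3:**
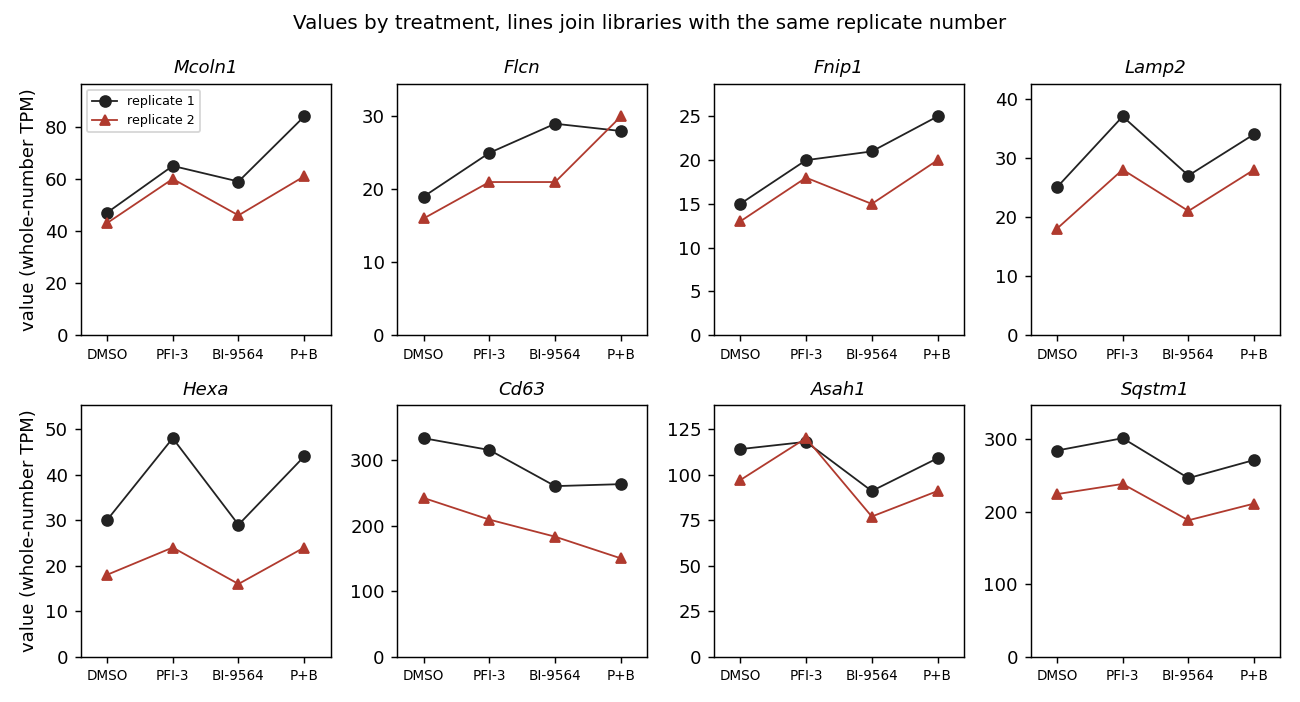
Values in TPM of 8 members by treatment, each axis from 0, with lines joining the libraries that share a replicate number (circles 1, triangles 2). The group means of Mcoln1, Flcn and Fnip1 are highest with P+B (libraries at 61 to 84, 28 to 30 and 20 to 25 TPM). Each of these ranges overlaps that of a single compound, and in replicate 1 Flcn is at 29 TPM with BI-9564 and 28 with P+B. The replicate 1 library lies above replicate 2 in every treatment for Hexa, Cd63 and Sqstm1, and also for Mcoln1, Fnip1 and Lamp2.

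No other member of the regulator group was called in any comparison. Tfeb (chr17:47737030-47792419, plus strand), the transcription factor itself, was at 6 and 11 TPM under DMSO, 11 and 12 under PFI-3, 8 and 13 under BI-9564 and 10 and 16 under P+B. Each treated group overlapped the DMSO range or touched it, and the log2 fold change with P+B was 0.58 (SE 0.35, adjusted p = 0.371). TFEB is regulated mainly through its location in the cell, which RNA does not show. Rragd, a Rag GTPase subunit and TFEB target, was at 11 and 8 TPM under DMSO, 11 and 12 under PFI-3, 7 and 7 under BI-9564 and 8 and 9 under P+B. Both BI-9564 libraries lay below all other libraries, and the log2 difference of BI-9564 from PFI-3 was -0.64 (SE 0.23, adjusted p = 0.289).

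Sqstm1 (p62), the receptor that brings ubiquitinated cargo to autophagosomes, was at 284 and 224 TPM under DMSO, 301 and 238 under PFI-3, 246 and 188 under BI-9564 and 271 and 211 under P+B. Within each replicate number PFI-3 was highest and BI-9564 lowest. The log2 difference from DMSO was 0.09 (PFI-3), -0.08 (P+B) and -0.23 (BI-9564, SE 0.19 each, none called). Gabarapl1, an ATG8-family protein of the autophagosome membrane, ranged from 8 to 14 TPM and was 0.18 lower with P+B on the log2 scale (-0.18, SE 0.32). In this role group 3 of 6 members were higher and 3 lower with P+B, with a median of 0.25, whereas with PFI-3 5 of 6 were higher.

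Among membrane proteins, Lamp2 (chrX:38401357-38456454, minus strand), which is needed for the fusion of autophagosomes with lysosomes, was at 25 and 18 TPM under DMSO, 37 and 28 under PFI-3, 27 and 21 under BI-9564 and 34 and 28 under P+B. All PFI-3 and P+B libraries lay above both DMSO libraries and BI-9564 overlapped them. The log2 fold change was 0.58 with PFI-3 (SE 0.22, 95% CI 0.07 to 1.09, adjusted p = 0.669) and 0.52 with P+B (SE 0.22, 95% CI 0.01 to 1.03, adjusted p = 0.212, and 0.0354 with the block). Lamp1 was at 476 and 387 TPM under DMSO, 529 and 460 under PFI-3, 461 and 428 under BI-9564 and 495 and 438 under P+B. Every treated group overlapped DMSO, and the log2 fold change was at most 0.20 (PFI-3, SE 0.12, adjusted p = 0.854).

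Cd63, a tetraspanin of late endosomes and exosomes, had lower values with P+B and with BI-9564 alone. It was at 333 and 242 TPM under DMSO, 315 and 209 under PFI-3, 260 and 183 under BI-9564 and 263 and 150 under P+B. The groups overlapped because replicate 1 was far above replicate 2 everywhere, and within each number DMSO was highest. The log2 difference with P+B was -0.51 (SE 0.31, adjusted p = 0.364, and 0.0119 with the block). With BI-9564 it was -0.38 (SE 0.31, adjusted p = 0.602, and 0.0702 with the block) and with PFI-3 -0.15 (SE 0.31). P+B differed from BI-9564 by -0.13 (SE 0.31, adjusted p = 0.97). Gpnmb, a glycoprotein strongly raised in lysosomal storage, was at 8 and 1 TPM under DMSO, 12 and 6 under PFI-3, 7 and 2 under BI-9564 and 8 and 1 under P+B. Its log2 fold change of 1.17 with PFI-3 had an SE of 0.91 (95% CI -0.93 to 3.27, adjusted p = 0.886), and the 2 DMSO libraries were further apart than the means of the groups. Scarb2 (LIMP-2), which carries glucocerebrosidase to lysosomes, had group means of 20 to 20.5 TPM in all 4 groups.

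The proteases had the lowest median with P+B, and 5 of 7 were lower than with DMSO (median log2 -0.12). Ctsd (cathepsin D), the main aspartic protease of lysosomes, was at 204 and 150 TPM under DMSO, 197 and 149 under PFI-3, 210 and 154 under BI-9564 and 197 and 153 under P+B. The treatments differed by far less than the 2 libraries of each group, and the log2 fold change lay between -0.03 and 0.04 in the 3 comparisons (SE 0.22 each). Ctsz (cathepsin Z), a carboxypeptidase, was at 67 and 54 TPM under DMSO, 53 and 62 under PFI-3, 51 and 45 under BI-9564 and 50 and 46 under P+B. It and Gla were the 2 members with both P+B libraries below both DMSO libraries (5.71%, against 18.9% of all genes), and neither was called (Ctsz log2 -0.32, SE 0.15, adjusted p = 0.241).

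Tpp1, the tripeptidyl peptidase missing in a form of neuronal ceroid lipofuscinosis, was at 39 and 36 TPM under DMSO, 51 and 50 under PFI-3, 44 and 48 under BI-9564 and 48 and 40 under P+B. All 6 treated libraries lay above DMSO, and its log2 fold change of 0.42 with PFI-3 (SE 0.13) had an adjusted p of 0.594, the lowest of any member in that comparison. The other proteases were Ctsa, the protective protein of neuraminidase (54 to 94 TPM), Ctsb (58 to 88 TPM) and Ctsl (84 to 123 TPM), cysteine cathepsins, and Ctsc, the dipeptidyl peptidase that activates granule proteases (18 to 26 TPM). Their log2 fold changes with P+B were -0.21 to 0.05, and none of the 4 had both P+B libraries on 1 side of both DMSO libraries.

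Of the glycosidases, 5 of 6 tested were higher with P+B (median log2 0.35) and 5 of 6 with PFI-3 (median 0.33). Neu1, the lysosomal sialidase, was at 7 and 5 TPM under DMSO, 7 and 10 under PFI-3, 9 and 7 under BI-9564 and 10 and 10 under P+B. Both P+B libraries lay above DMSO, and the log2 fold change was 0.67 (SE 0.28, 95% CI 0.03 to 1.31, adjusted p = 0.206, and 0.161 with the block). Gaa, the acid alpha-glucosidase that breaks down glycogen, was at 26 and 12 TPM under DMSO, 26 and 19 under PFI-3, 26 and 22 under BI-9564 and 31 and 22 under P+B. The replicate 1 libraries of DMSO and both single compounds were equal, and the spread within DMSO covered the other groups apart from P+B replicate 1 (log2 with P+B 0.53, SE 0.34, adjusted p = 0.389).

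Hexa (chr9:59539540-59565109, plus strand), the alpha subunit of beta-hexosaminidase that degrades ganglioside GM2, was at 30 and 18 TPM under DMSO, 48 and 24 under PFI-3, 29 and 16 under BI-9564 and 44 and 24 under P+B. Within each number PFI-3 and P+B lay above DMSO and BI-9564 below it. The log2 fold change was 0.53 with PFI-3 (SE 0.43, adjusted p = 0.898) and 0.47 with P+B (SE 0.43, adjusted p = 0.571, and 0.0532 with the block). An exon of Hexa overlaps Tmem202 on the opposite strand, and the sources used here do not say whether strand was used in counting. Gla, the alpha-galactosidase A of globotriaosylceramide breakdown, was at 6 and 7 TPM under DMSO, 7 and 8 under PFI-3, 6 and 6 under BI-9564 and 5 and 4 under P+B. Its difference between P+B and PFI-3 was -0.63 on the log2 scale (SE 0.27, 95% CI -1.26 to -0.01, adjusted p = 0.300), in steps of 1 TPM.

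Glb1, the beta-galactosidase of GM1 breakdown, was at 37 and 31 TPM under DMSO, 41 and 46 under PFI-3, 42 and 32 under BI-9564 and 41 and 37 under P+B. Both PFI-3 libraries lay above both DMSO libraries (log2 0.35, SE 0.17, adjusted p = 0.765), and P+B replicate 2 equalled the higher DMSO library. Galns, the galactosamine sulfatase, ranged from 3 to 6 TPM. Naglu was at 1 TPM in all libraries except BI-9564 and P+B replicate 2, where it was at 2.

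Of the lipid genes, 5 of 6 tested were higher with P+B (median log2 0.23). Psap, the precursor of the saposins that present lipids to their hydrolases, was at 218 and 159 TPM under DMSO, 226 and 168 under PFI-3, 228 and 167 under BI-9564 and 224 and 157 under P+B. The treated groups differed from DMSO by 0.01 to 0.07 on the log2 scale (SE 0.24 each), far less than between the replicate numbers. Ppt1, the palmitoyl-protein thioesterase, was at 32 and 27 TPM under DMSO, 35 and 33 under PFI-3, 33 and 33 under BI-9564 and 40 and 37 under P+B. All 6 treated libraries lay above both DMSO libraries and P+B above the rest (log2 with P+B 0.38, SE 0.13, adjusted p = 0.144, and 0.0758 with the block).

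Asah1 (chr8:41340197-41374773, minus strand), the acid ceramidase, was at 114 and 97 TPM under DMSO, 118 and 120 under PFI-3, 91 and 77 under BI-9564 and 109 and 91 under P+B. Both PFI-3 libraries lay above DMSO and both BI-9564 libraries below it, with P+B overlapping DMSO. The log2 fold change was 0.18 with PFI-3 (SE 0.13, adjusted p = 0.88) and -0.33 with BI-9564 (SE 0.13, 95% CI -0.63 to -0.02, adjusted p = 0.313). Npc1 and Npc2 hand cholesterol out of the lysosome. Npc1 was at 20 and 19 TPM under DMSO, 17 and 19 under PFI-3, 16 and 19 under BI-9564 and 24 and 22 under P+B. Npc2 was at 60 and 52 TPM under DMSO, 83 and 63 under PFI-3, 65 and 50 under BI-9564 and 69 and 62 under P+B. Both genes were thus above DMSO in both P+B libraries, Npc2 also with PFI-3, and neither was called (log2 with P+B 0.23 and 0.22, adjusted p = 0.444 and 0.493). Smpd1, the acid sphingomyelinase, ranged from 3 to 8 TPM, and Lipa from 1 to 4 TPM.

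The proton pump genes showed small differences. All 4 were higher with P+B (median log2 0.13) and all 4 with PFI-3 (median 0.17). Atp6v0d1, a subunit of the membrane part of the pump, was at 111 and 115 TPM under DMSO, 126 and 120 under PFI-3, 124 and 123 under BI-9564 and 128 and 132 under P+B. All 6 treated libraries lay above DMSO, with a log2 fold change of 0.20 with P+B (SE 0.08, 95% CI 0.01 to 0.39, adjusted p = 0.204), 0.12 with PFI-3 and 0.13 with BI-9564 (SE 0.08 each). Atp6v1h, a regulatory subunit of the cytosolic part, was at 52 and 49 TPM with DMSO and at 55 to 65 TPM in the 6 treated libraries, all above DMSO (log2 with P+B 0.22, SE 0.12, adjusted p = 0.304). Atp6v1a, the subunit that hydrolyses ATP, ranged from 61 to 71 TPM, and Atp6ap1, an accessory subunit, from 47 to 69 TPM, both without separation from DMSO.

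Counted over the members, both PFI-3 libraries lay above both DMSO libraries for 11 of 35 (31.4%, against 16.5% of all genes) and below for none (0%, against 12.8%). For P+B the counts were 11 above (31.4%, against 28.6%) and 2 below. For BI-9564 they were 5 above (14.3%, against 22.9%) and 3 below (8.57%, against 18.3%). Tpp1, Ppt1, Atp6v1h, Atp6v0d1 and Flcn lay above DMSO with all 3 treatments. Taken within a replicate number, 22 members were higher with PFI-3 in both pairs (62.9%, against 27.3% of all genes) and 4 lower (11.4%, against 22.4%); with P+B 18 were higher (51.4%, against 37.7%) and 8 lower (22.9%, against 25.7%), and with BI-9564 13 were higher (37.1%, against 32.3%) and 11 lower (31.4%, against 27.2%). The pluripotency markers were read in the same pairs: with PFI-3 all 8 were higher in both (Esrrb, for one, was at 86 and 58 TPM under DMSO and 128 and 110 under PFI-3), with P+B 2 were higher and 4 lower, and with BI-9564 1 was higher and 6 lower. Their sum was 3582 to 4763 TPM under DMSO, 3991 to 4972 under PFI-3, 3242 to 4260 under BI-9564 and 3420 to 4373 under P+B, and its part in the members' counts was not tested. The smallest p that an exact permutation test allows for 2 libraries against 2 is 0.333, so these counts are descriptions.

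**Figure D4:**
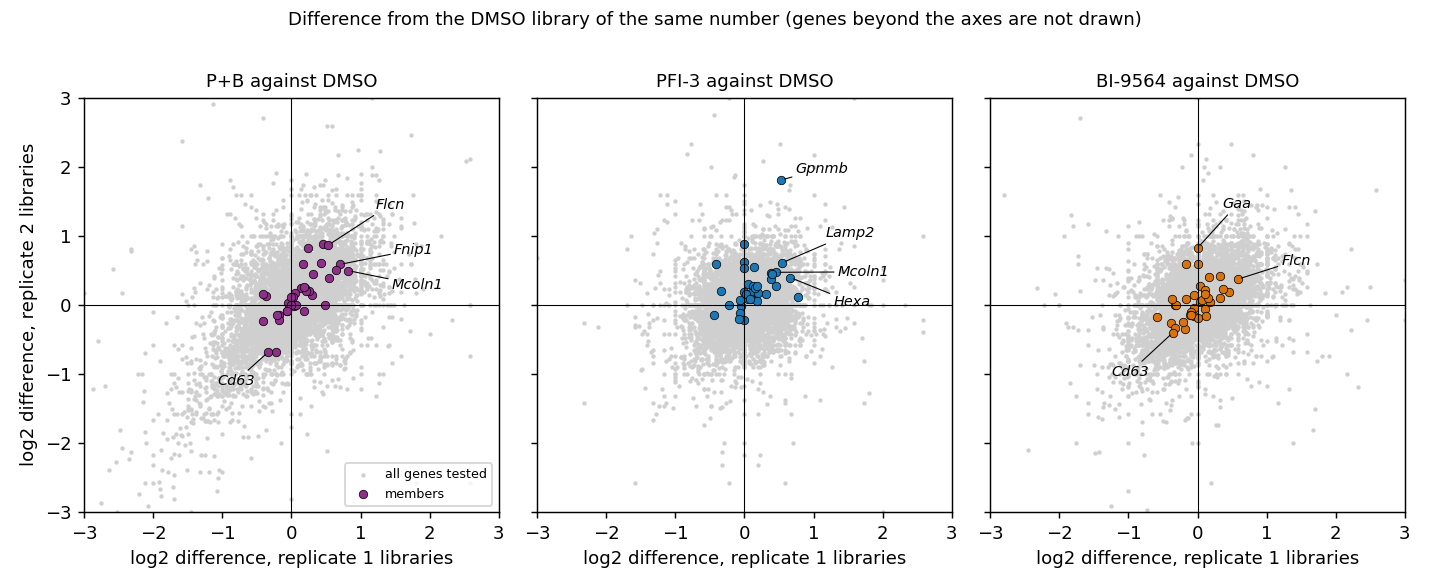
Difference of log2(value + 1) between each treated library and the DMSO library of the same number, replicate 1 on the x axis and replicate 2 on the y axis, for all 10222 tested genes (grey) and the 35 members (coloured). With PFI-3 22 members lie in the upper right, where both differences are above 0, and 4 in the lower left; with P+B the counts are 18 and 8, and with BI-9564 13 and 11.

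Between the single compounds the members were lower with BI-9564. BI-9564 lay below PFI-3 for 27 of 35 members (median log2 -0.15, beside 0.00 over all genes). It lay above PFI-3 for 22.9% of members, against 50.2% of all genes. No member was called without the block (0.108% of all genes were), and 2 members, Asah1 and Rragd, had an unadjusted p under 0.05 (5.71%, against 14.2%). With the block 12 members had one (34.3%, against 20.1%). Both BI-9564 libraries lay below both PFI-3 libraries for 10 members (28.6%, against 19.9%), and for none were both above (0%, against 20.5%). With the block Hexa was called (log2 -0.63, SE 0.13, 95% CI -0.92 to -0.34, adjusted p = 0.0486; 2.86% of members, against 1.48% of all genes), and Asah1 (-0.50, adjusted p = 0.043) and Sqstm1 (-0.31, adjusted p = 0.039) passed the adjusted p without reaching a fold of 1.5 (3 of 35 in all, 8.57%, against 2.51%). Without the block the adjusted p of the 3 genes was 0.562, 0.18 and 0.511. All 6 membrane members lay below their PFI-3 level with BI-9564.

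No member differed between P+B and a single compound by the test. P+B against PFI-3 had no member called without or with the block (1.31% and 3.42% of all genes). Without the block 1 member had an unadjusted p under 0.05 (Gla, 2.86%, against 16.6%), and with it 6 did (17.1%, against 23.1%). The median was -0.06, beside 0.03 over all genes, with 14 of 35 members higher (40%, against 54% of all genes). Both P+B libraries lay above both PFI-3 libraries for 5 members (14.3%, against 23.8%) and below for 6 (17.1%, against 18.9%). P+B against BI-9564 had none called (0.196% of all genes, and 0.802% with the block, where 7 members, 20% against 12.3%, had an unadjusted p under 0.05 and none was called), 2 with an unadjusted p under 0.05 (Npc1 and Mcoln1, 5.71%, against 7.97%) and a median of 0.11, with 26 of 35 members higher (74.3%, against 54.3% of all genes). Both P+B libraries lay above both BI-9564 libraries for 10 members (28.6%, against 17.6%) and below for 1, Gla (2.86%, against 13.7%). Mcoln1 was 0.45 higher with P+B than with BI-9564 on the log2 scale (SE 0.18, 95% CI 0.05 to 0.86, adjusted p = 0.564), and Hexa 0.57 (SE 0.43, 95% CI -0.42 to 1.56, adjusted p = 0.833).

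The libraries numbered 1 and 2 differed in these genes as well, a comparison added after seeing the data. The members summed to 2744 TPM in DMSO replicate 1 and 2191 in replicate 2, 2932 and 2435 under PFI-3, 2607 and 2157 under BI-9564, and 2785 and 2246 under P+B. Replicate 1 was thus above replicate 2 in each group. Of the 35 tested members 30 were higher in replicate 1 on average (85.7%, against 51.3% of all genes), with a median log2 difference of 0.21, beside 0.01 over all genes. For 17 members replicate 1 was higher in all 4 groups (48.6%, against 12.8% of all genes), and for 1, Tfeb, lower in all 4 (2.86%, against 11.1%).

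In the fit with treatment and replicate number as terms, Gpnmb (log2 1.66, SE 0.29, adjusted p = 0.025), Hexa (0.84, SE 0.09, adjusted p = 0.00431) and Cd63 (0.59, SE 0.06, adjusted p = 0.00429) were called between the numbers (8.57% of members, against 1.32% of all genes). No member was called when any 1 of the 6 treated libraries was left out, and 2 were called without either DMSO library. Of the members 10 passed the adjusted p in the direction of replicate 1 (28.6%, against 2.19%) and none in the other (0%, against 1.58%). Besides these 3 they were Psap (0.46), Ctsd (0.41), Ctsl (0.41), Sqstm1 (0.36), Ctsa (0.35), Ctsb (0.29) and Lamp1 (0.20), that is, soluble hydrolases, the saposin precursor, membrane proteins and the autophagy receptor p62, and no gene of the proton pump. Pluripotency markers differed between the numbers too, and 7 of 8 were higher in replicate 1 in all 4 groups. The exception was Pou5f1, at 1273 and 1281 TPM under DMSO and higher in replicate 1 elsewhere. Dppa5a was at 2588 to 2930 TPM in the replicate 1 libraries and 1835 to 2146 in the replicate 2 libraries, and Zfp42 at 186 to 257 and 100 to 189. Their part in the members' difference was not tested, and the labels do not say what the number stands for.

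**Figure D5:**
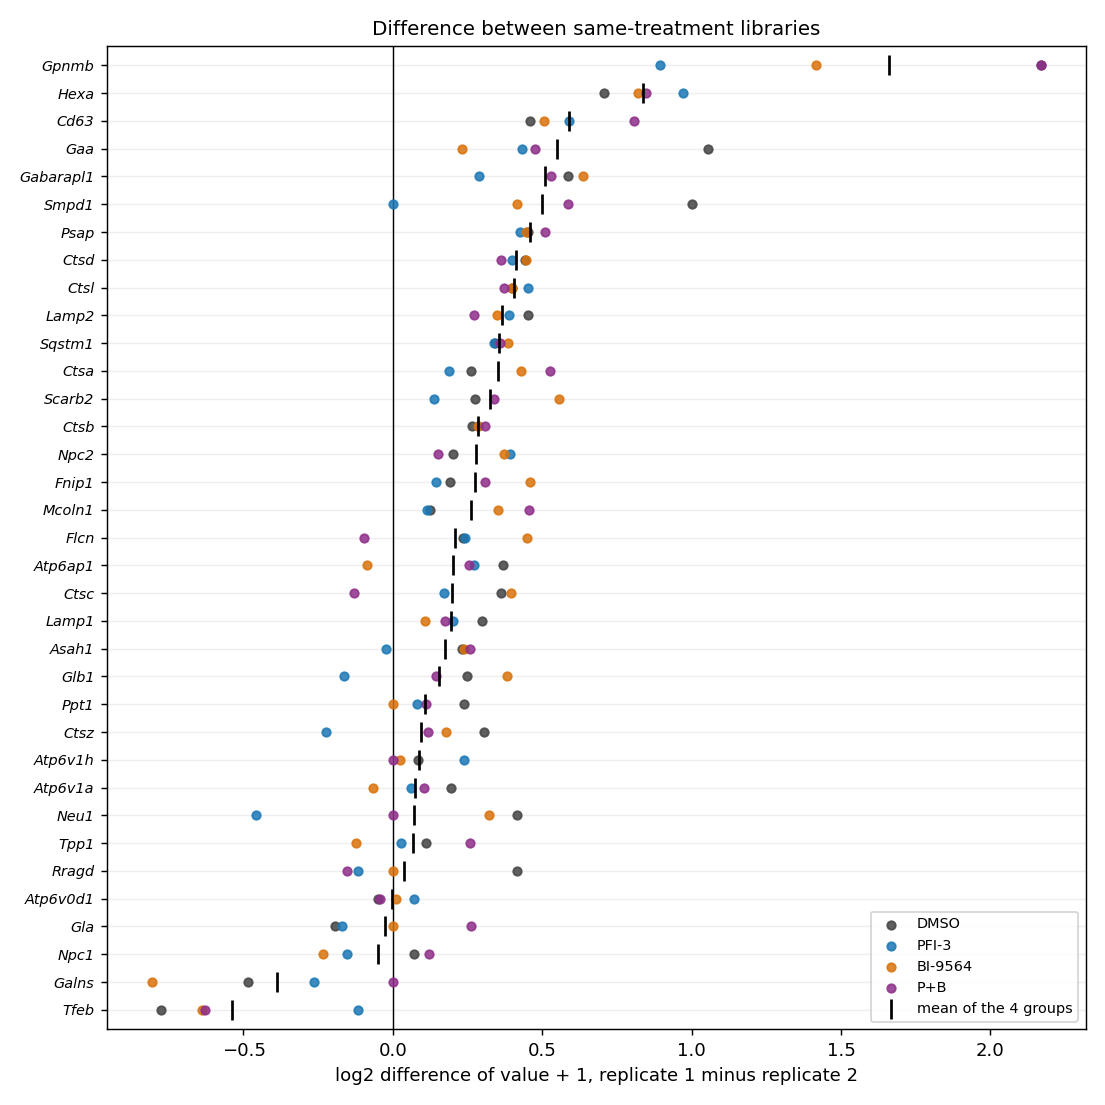
Difference of log2(value + 1) between replicate 1 and replicate 2 within each treatment for the 35 tested members, ordered by the mean over the 4 groups (black bars). The mean lies above 0 for 30 members, up to 1.66 for Gpnmb, and lies lowest for Tfeb at -0.54.

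Other genes of the pathway, from 6 lists of 130 genes that do not hold the members, were read beside them; 109 were tested. With P+B 4 were called higher (3.67%, against 1.28% of all genes) and 3 lower (2.75%, against 2.72%) without the block, and 78 of 109 were higher (71.6%, against 57.6% of all genes) with a median log2 of 0.17. With PFI-3 none was called with or without the block (15 had an unadjusted p under 0.05, 13.8% against 6.79%; median 0.10). With BI-9564 none was called without the block (18 had an unadjusted p under 0.05, 16.5% against 14.9%; median 0.07). Without the block, 2 of 22 other hydrolases rose with P+B and 1 fell. Plbd2, a phospholipase-like protein of the lumen, rose from 22 and 25 TPM to 40 and 45 (log2 0.83, SE 0.16, adjusted p = 0.0283). Manba, the beta-mannosidase, fell from 85 and 88 TPM to 33 and 35 (log2 -1.32, SE 0.17, adjusted p = 0.00597). It stood at 84 and 87 under PFI-3 and 48 and 32 under BI-9564, and P+B differed from PFI-3 by -1.31 (SE 0.17, adjusted p = 0.0167).

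Among the MiT factors and mTORC1 regulators 17 of 20 were higher with P+B (median 0.23) and 2 rose. Tsc1, which restrains mTORC1 together with TSC2, rose from 10 and 9 TPM to 19 and 19 (log2 0.93, SE 0.18, adjusted p = 0.0266), with 16 and 13 under PFI-3 and 17 and 18 under BI-9564. Sesn2 (sestrin 2), the leucine-sensing inhibitor of the pathway and a stress response gene, rose from 62 and 43 TPM to 98 and 93 (log2 0.87, SE 0.17, adjusted p = 0.0268), with 66 and 58 under PFI-3 and 88 and 80 under BI-9564. Litaf, which acts in endosomal sorting, was the single membrane gene of 20 that passed and fell from 74 and 57 TPM to 38 and 35 (log2 -0.82, SE 0.14, adjusted p = 0.0191). Atg2a, the lipid transfer protein of autophagosome growth, was the single one of 29 autophagy genes and fell from 62 and 60 TPM to 36 and 38 (log2 -0.71, SE 0.11, adjusted p = 0.0103). No gene passed among 13 other pump subunits, where Atp6v0a1 came closest (log2 0.47, SE 0.14, adjusted p = 0.0886), or among 5 sorting genes, where Igf2r, the mannose 6-phosphate receptor, did (log2 0.47, SE 0.13, adjusted p = 0.0884). With the block, 10 of the 109 were called higher in P+B than in DMSO (9.17%, against 2.93% of all genes) and 6 lower (5.5%, against 4.1%). The further calls were Slc36a1, Tpcn1, Atp6v0e2, Lamtor4, Nprl2 and Ulk1 (higher) and Cd68, Cln3 and Atg13 (lower). Against DMSO, the block also gave calls under BI-9564, 1 higher (0.917%, against 0.489%) and 2 lower (1.83%, against 1.04%). These were Sesn2 (log2 0.69, adjusted p = 0.035), Manba (-1.12, adjusted p = 0.0259, and 0.0588 without the block) and Cln3 (-0.78, adjusted p = 0.0252). For P+B against PFI-3 the calls went from 1 lower (Manba) to 3 higher (Tpcn1, Nprl2 and Sesn2; 2.75%, against 1.03%) and 2 lower (Manba and Cln3; 1.83%, against 2.4%), and for BI-9564 against PFI-3 from 0 to 2 lower (Manba and Depdc5; 1.83%, against 0.978%).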

How the data were processed

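The 8 RNA-seq libraries, 2 for each of the treatments DMSO, PFI-3, P+B and BI-9564, were grouped by their labels. The labels name poly(A) libraries from a VAHTS mRNA-seq kit, and the submitters' processing notes name bcl2fastq, Bowtie2 2.2.5, RSEM 1.3.0 and mm10. The authors deposited 1 table of scores, TPM made whole numbers, with a row per gene and a column per library: all values were whole and each library summed to just under the total of TPM. It holds no columns of comparisons. TPM keeps no depth, so DESeq2, the authors' tool, which needs counts, was not run.

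The test was limma 3.58.1 (R 4.3.3, lmFit, eBayes with trend) on log2(value + 1) of 10222 genes with a mean of 5 or more, all 4 groups together without a block (4 residual degrees of freedom). P-values were adjusted by Benjamini-Hochberg over all genes tested, separately for each of 6 comparisons. The scripts were tested on simulated data. Groups share replicate numbers, and the differences between replicates 1 and 2 correlated between every pair of groups (r = 0.143 to 0.236), so the fit blocked on this number is given where it changed a call of a member, and as counts for the other pathway genes. The combination of the block with each other choice and the comparison of replicate 1 with 2 were added after seeing the data.

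The members, role groups, pathway lists and markers were chosen with earlier results of these data known. Members are given in full where their change was among the largest of a comparison, where they were the highest of their role group or not tested, and for Tfeb; Cd63, Asah1, Tpp1, Ctsz, Ppt1, Npc1, Npc2 and Atp6v1h were singled out after their values were seen. Of the other pathway lists, genes called without the block are named (1 of them is not reported here), or else the gene with the smallest adjusted p; those called with the block alone were added after their values were seen. Gene positions are from GENCODE M21 (GRCm38, the sequence of mm10), promoter windows from RefSeq (GRCm38.p6); 24 of 37 members had no exon overlapping another gene. Alternatives were pseudocounts of 0.5 and 5, minimum means of 1 and 20 or no filter, quantile normalization, median centring, no trend, only the 4 libraries compared, an adjusted p under 0.01, the adjusted p alone and each library left out.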

Additional observations from a re-analysis of the deposited data

Results flagged for a closer look

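Hexa, Asah1 and Sqstm1 drew attention because the effects of the single compounds differed from each other by a test of the difference itself, BI-9564 against PFI-3 in the limma fit blocked on the replicate number. The log2 difference was -0.63 for Hexa, -0.50 for Asah1 and -0.31 for Sqstm1 (BI-9564 lower, adjusted p = 0.0486, 0.043 and 0.039). In the limma fit without the block the adjusted p was 0.562, 0.18 and 0.511. Of the 3 genes only Hexa reached a fold of 1.5, and 2.51% of all genes passed the adjusted p in the blocked fit. Asah1, the acid ceramidase, was noted also because its PFI-3 libraries lay above both DMSO libraries and its BI-9564 libraries below both, with the same log2 difference of -0.50. No explanation was tested.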

How the results depend on the processing

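Of the values of single named members, 484 kept their direction and side of the threshold when another choice was made and 376 when a library was left out; 4 passed the threshold under another choice, namely Mcoln1 without a filter and Mcoln1, Flcn and Fnip1 with the replicate block. The count of members called with P+B was 0, 1 without a filter (Mcoln1) and 3 with the block, and that of BI-9564 against PFI-3 was 1 with the block. Blocked counts with P+B fell to 1 at a minimum mean of 1, to 0 with only the 4 libraries compared, and lay between 0 and 1 with 1 library left out. Of the 17 added settings, Mcoln1 was called with P+B in 11, Flcn in 6, Fnip1 in 2 and Cd63 in 2. The same settings are not given for the blocked call of Hexa between BI-9564 and PFI-3, so its dependence on them is not shown. Members called between replicate 1 and 2 numbered 1 without a trend and 0 to 2 with 1 library left out. The block changed no other call of a member at the 1.5-fold threshold in the comparisons of treatments. Why calls changed when a library was left out was not tested. The members' median with BI-9564 was -0.16 without DMSO replicate 2, and its range with 1 library left out was -0.16 to 0.15.

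Values near 0 changed sign, and with a library left out so did some larger ones. Gaa with BI-9564, for one, was at 0.41 with all libraries and at -0.12 without DMSO replicate 2. With P+B, quantile normalization gave 0.0596 for Ctsd and 0.0153 for Sqstm1, and centring on the median gave -0.0827 for Psap; with BI-9564, centring gave -0.0076 for Ctsd. With 1 library left out, log2 values with P+B ranged from -0.23 to 0.21 for Ctsd, -0.26 to 0.10 for Sqstm1, -0.24 to 0.27 for Psap, -0.34 to 0.076 for Rragd and -0.0317 to 0.27 for Lamp1. With PFI-3 they ranged from -0.25 to 0.19 for Ctsd, -0.22 to 0.84 for Gaa, -0.16 to 0.29 for Psap and -0.0852 to 0.26 for Sqstm1. With BI-9564 they ranged from -0.18 to 0.26 for Ctsd, -0.10 to 0.68 for Tfeb, -0.51 to 0.31 for Hexa, -0.88 to 1.29 for Gpnmb, -0.0671 to 0.39 for Lamp2, -0.12 to 0.94 for Gaa, -0.0796 to 0.30 for Glb1, -0.16 to 0.29 for Psap and -0.10 to 0.20 for Lamp1. None of these was called in any setting. TPM keeps no depth, so the share of this spread that is counting error is unknown.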
